A study of Mus musculus with 4 samples.

Results

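The G1 cyclins and their kinases are 8 genes: the D-type cyclins Ccnd1, Ccnd2 and Ccnd3, the E-type cyclins Ccne1 and Ccne2, and the cyclin-dependent kinases Cdk2, Cdk4 and Cdk6. They were found by gene symbol in the authors' deposited table, where all 8 were present among 16709 symbols, with 11 transcripts in all. 3T3-L1 cells were given 25 µM Nutlin-3a for 24 h or, as the vehicle control, a matching amount of DMSO. 3T3-L1 is a mouse line of fibroblast-like preadipocytes, grown here in serum-containing medium, and every library came from this 1 line. Nutlin-3a is a small molecule that blocks the p53-binding pocket of MDM2. RNA sequencing was done on 2 biological replicates per group, 4 libraries in all, and the comparison asks which transcripts differ once p53 is released from MDM2.

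In G1, mitogens raise the D-type cyclins, which bind CDK4 or CDK6. These complexes begin to phosphorylate the retinoblastoma protein. Cyclin E with CDK2 completes this step, E2F factors are set free, and the cell enters S phase. p53 acts on this machinery mainly through p21, the product of Cdkn1a, which binds and inhibits cyclin-CDK2 complexes. In preadipocytes the same cyclins also drive the rounds of division that precede fat cell differentiation.

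For each transcript the authors deposited a single FPKM value per group, and none per library. FPKM counts fragments by kilobase of transcript length and relative to all mapped fragments. No value below therefore carries a replicate error, no test could be run, and higher and lower describe the authors' group values. Depth per library is unknown from these files. Over all transcripts the values summed to 967341 FPKM with Nutlin-3a and to 980491 FPKM with DMSO. All 10 preadipocyte and fibroblast markers checked were listed at 1 FPKM or more in both groups. Their summed level was 2511 FPKM with Nutlin-3a against 5528 FPKM with DMSO. Vim was the largest part of it (1181 FPKM with Nutlin-3a against 3169 FPKM with DMSO). Of the 10, 6 were at least 2-fold lower, beside 6.14% of all genes compared, as defined below. Dlk1 alone was listed higher, at 623 FPKM with Nutlin-3a against 513 FPKM with DMSO. Of other cell types, 0 of 5 mature adipocyte markers reached 1 FPKM in either group, and they summed to 1.90 FPKM with Nutlin-3a against 0.201 FPKM with DMSO. The 3 epithelial markers listed also stayed under it (sums of 0.472 FPKM with Nutlin-3a against 0.139 FPKM with DMSO). Of 4 macrophage markers listed, Cd68 and Cd14 reached it in both groups (sums of 10.4 FPKM with Nutlin-3a against 7.94 FPKM with DMSO). Of 3 endothelial markers listed, Pecam1 did with Nutlin-3a alone (sums of 1.72 FPKM with Nutlin-3a against 0.174 FPKM with DMSO). Plin1, Lep, Ptprc, Kdr and Epcam were listed at 0 with DMSO and under 0.1 FPKM with Nutlin-3a. Adgre1, Cdh5 and Krt18 were looked up but not listed under these symbols. The part of these marker levels in the results below was not tested.

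Summed over its transcripts, no G1 cyclin or kinase differed by 2-fold, and the family was split by direction. Ccnd1, Ccnd3, Ccne1, Cdk2 and Cdk4 were listed 13.2% to 25.2% lower in Nutlin-3a than in DMSO. Ccnd2 and Cdk6 were listed 46.1% and 80.4% higher. These directions are those of FPKM as deposited, and that of Ccne1 turned under 1 of the scalings tried, given with its values below. Ccne2 was close to 0 in both groups. From highest to lowest with Nutlin-3a the order was Cdk4, Ccnd1, Ccne1, Ccnd2, Ccnd3, Cdk2, Cdk6 and Ccne2, and with DMSO it was the same but for Ccnd2 and Ccnd3. Which neighbours in this order differ beyond replicate spread cannot be told from single values. In bulk RNA, fewer cells that express a gene and less of its RNA per cell cannot be told apart.

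**Figure D1:**
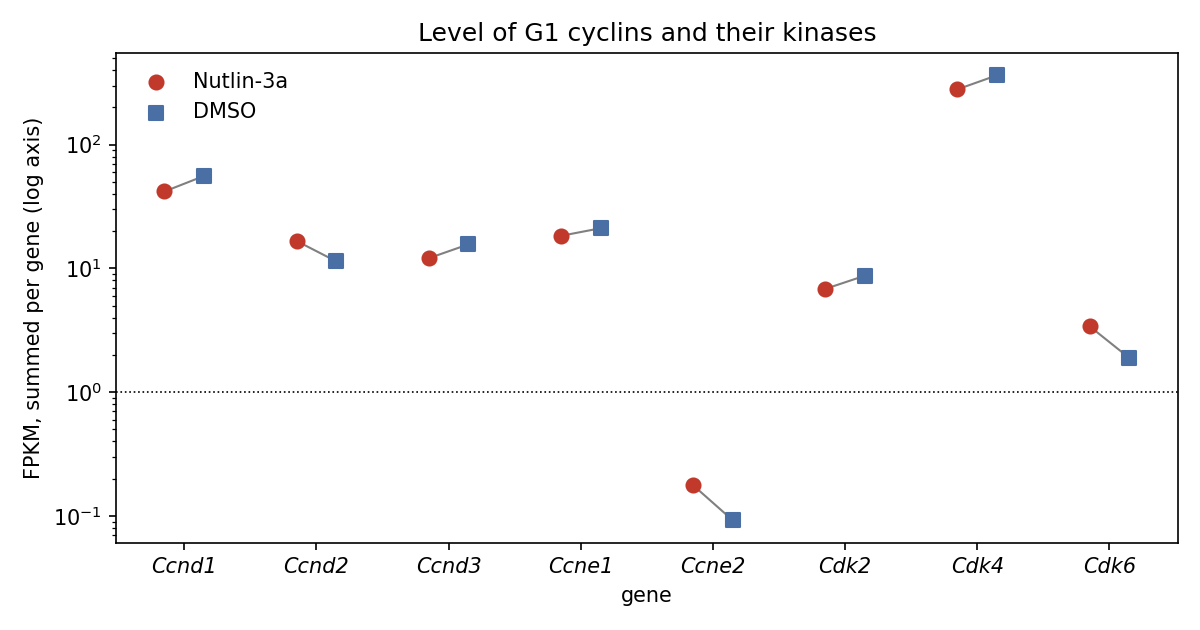
FPKM of each gene, summed over its transcripts, on a log axis, with Nutlin-3a as circles and DMSO as squares; each point is the authors' single value for a group, and the dotted line marks 1 FPKM. Cdk4 lies highest (280.1 FPKM in Nutlin-3a, 363.9 FPKM in DMSO), Ccne2 lies lowest, and the lines slope the other way for Ccnd2, Ccne2 and Cdk6.

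Among the D-type cyclins, Ccnd1 was the most abundant transcript in both groups. It lies on chromosome 7 from 144929931 to 144939925 on the minus strand (mm10, GENCODE M21) and was listed at 41.8 FPKM with Nutlin-3a against 55.9 FPKM with DMSO. Its log2 ratio, taken here and below on FPKM + 1 as Nutlin-3a over DMSO, was -0.41. Cyclin D1 is the member best known as the sensor of growth factor signals in fibroblasts.

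Ccnd3, on chromosome 17 from 47505051 to 47599691 on the plus strand, was listed at 12.1 FPKM with Nutlin-3a against 15.7 FPKM with DMSO, a log2 ratio of -0.35. Cyclin D3 is known for its role in lymphocytes and in differentiating cells, and it has been linked to fat cell formation. The value was lower with Nutlin-3a by nearly the same proportion as that of Ccnd1, so the ratio of Ccnd1 to Ccnd3 was 3.46 in Nutlin-3a and 3.57 in DMSO.

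Ccnd2, on chromosome 6 from 127125162 to 127152193 on the minus strand, went the other way. It was listed at 16.7 FPKM with Nutlin-3a against 11.4 FPKM with DMSO, a log2 ratio of 0.51. Cyclin D2 is the D-type cyclin of granulosa and pancreatic beta cells, and like its relatives it activates CDK4 and CDK6. The level of Ccnd2 was 1.38 times that of Ccnd3 with Nutlin-3a and 0.729 times with DMSO.

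The 3 D-type cyclins summed to 70.6 FPKM with Nutlin-3a against 83.0 FPKM with DMSO. Of these sums Ccnd1 made up 59.3% in Nutlin-3a and 67.4% in DMSO. The share of Ccnd2 was 23.6% with Nutlin-3a and 13.7% with DMSO, and that of Ccnd3 was 17.1% with Nutlin-3a and 18.9% with DMSO. The ratio of Ccnd1 to Ccnd2 was 2.51 with Nutlin-3a and 4.90 with DMSO. As deposited, the D-type pool was thus a little smaller in Nutlin-3a and held more Ccnd2. The shares do not change when all values of a group are multiplied by the same factor, but the sums do. The upper quartile of values above 0, used for a scaling below, was 13.8 FPKM with Nutlin-3a against 16.4 FPKM with DMSO. This quartile was lower in Nutlin-3a by nearly the same proportion as the D-type sum (0.851-fold). The smaller pool therefore holds for FPKM as deposited and not under that scaling.

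**Figure D2:**
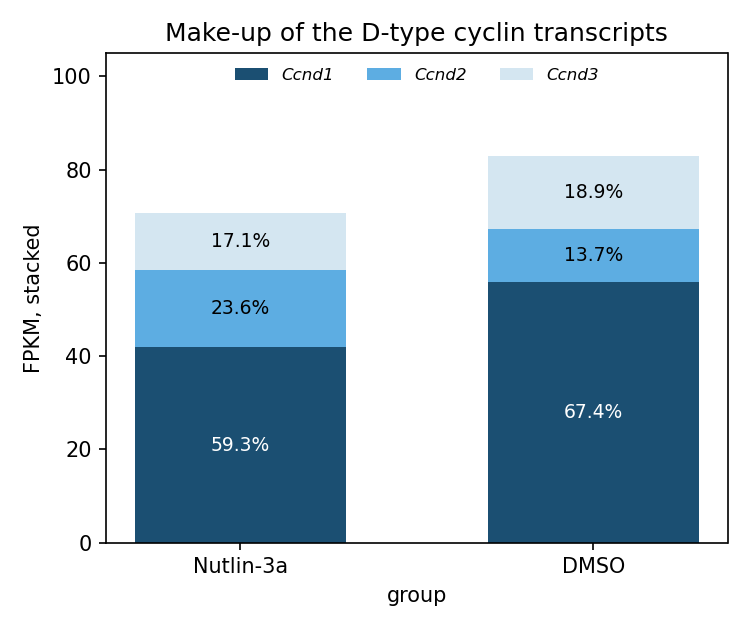
Stacked FPKM of Ccnd1, Ccnd2 and Ccnd3 in Nutlin-3a (left) and DMSO (right), 1 deposited value per gene and group, with the share of each gene in the sum of its group. The Ccnd2 segment holds 23.6% in Nutlin-3a and 13.7% in DMSO.

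Of the kinases that bind these cyclins, Cdk4 exceeded Cdk6 by far. Cdk4, on chromosome 10 from 127063534 to 127067920 on the plus strand, was listed at 280.1 FPKM with Nutlin-3a against 363.9 FPKM with DMSO, a log2 ratio of -0.38. It ranked 366 of 16709 symbols in Nutlin-3a and 317 in DMSO, the highest rank of the 8 genes. Cdk6, on chromosome 5 from 3341485 to 3531008 on the plus strand, was listed at 3.41 FPKM with Nutlin-3a against 1.89 FPKM with DMSO, a log2 ratio of 0.61.

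Both kinases phosphorylate the retinoblastoma protein, and they are largely interchangeable in mouse cells. Because they were listed in opposite directions, the ratio of Cdk4 to Cdk6 was 82.2 in Nutlin-3a and 193 in DMSO. Cdk6 still supplied only 1.20% of their joint level in Nutlin-3a and 0.516% in DMSO. The level of Cdk4 was 3.97 times that of all D-type cyclins in Nutlin-3a and 4.39 times in DMSO.

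Cdk2, the partner of cyclins E and A, lies on chromosome 10 from 128697939 to 128705031 on the minus strand. Its summed value was 6.83 FPKM with Nutlin-3a against 8.74 FPKM with DMSO, a log2 ratio of -0.31. It was the kinase with more than 1 listed transcript. The main transcript had 6.83 FPKM with Nutlin-3a against 7.97 FPKM with DMSO, while the other was listed at 0 with Nutlin-3a against 0.767 FPKM with DMSO, where it made up 8.78% of the sum. The main transcript alone gave a log2 ratio of -0.20. No fold is given for the minor transcript, since a listed 0 may stand for an estimate that failed.

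RefSeq promoter windows (build GRCm38.p6, 250 bases before to 50 after the start) were found for 5 of the 8 genes, in 6 windows, since Ccnd3 has a pair. The windows of Cdk4, Cdk6 and Cdk2 are shown because Cdk4 and Cdk6 serve the same cyclins and were listed in opposite directions. Each is written 5′ to 3′ on the strand of its gene. Capitals mark the E-box CACGTG and the GC box GGGCGG in Cdk4 and Cdk6, and the E2F-type motif GCGGGAA and the GC box in Cdk2, on either strand, and matches that overlap or touch are run together.
Cdk4 (chr10:127063285-127063584, plus strand): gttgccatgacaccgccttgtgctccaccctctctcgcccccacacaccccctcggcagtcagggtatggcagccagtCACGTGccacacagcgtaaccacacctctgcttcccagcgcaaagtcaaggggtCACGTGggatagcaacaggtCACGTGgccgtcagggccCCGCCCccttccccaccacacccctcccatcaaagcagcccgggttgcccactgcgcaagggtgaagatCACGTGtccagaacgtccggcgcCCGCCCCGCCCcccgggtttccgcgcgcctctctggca
Cdk6 (chr5:3343643-3343942, plus strand): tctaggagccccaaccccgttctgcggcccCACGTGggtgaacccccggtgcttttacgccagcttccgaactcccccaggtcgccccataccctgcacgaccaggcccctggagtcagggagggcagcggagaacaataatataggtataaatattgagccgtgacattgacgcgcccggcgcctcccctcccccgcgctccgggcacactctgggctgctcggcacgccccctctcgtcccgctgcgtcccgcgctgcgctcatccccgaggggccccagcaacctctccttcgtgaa
Cdk2 (chr10:128705002-128705301, minus strand): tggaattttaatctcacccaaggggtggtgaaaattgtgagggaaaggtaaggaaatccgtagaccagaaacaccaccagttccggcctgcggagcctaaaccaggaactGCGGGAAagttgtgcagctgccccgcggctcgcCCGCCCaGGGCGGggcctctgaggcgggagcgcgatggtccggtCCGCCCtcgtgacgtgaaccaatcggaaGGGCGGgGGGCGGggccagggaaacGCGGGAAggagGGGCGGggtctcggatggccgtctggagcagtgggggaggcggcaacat
The Cdk4 window held 4 E-boxes, the motif bound by MYC and its relatives, and the Cdk6 window held 1. Among all 32851 windows of this length, 7.15% held at least 1 E-box. The Cdk2 window held 2 matches to GCGGGAA, which 4.60% of all windows contain, and no other member window held this motif. GC boxes, present in 35.7% of all windows, numbered 6 in Cdk2, 4 in Ccne1, 3 in Cdk4, 2 in each Ccnd3 window and 0 in Cdk6. CCAAT, in 37.4% of all windows, was found in the Cdk2 window and in 1 Ccnd3 window. The E2F-type letters GCGCGAA (1.59% of all windows) and the cell cycle element TTTGAA (17.9%) had 0 matches in the 6 windows. These are letter matches only, and nothing on binding was measured. The Cdk6 window lies inside the GENCODE span given above, which starts at 3341485, so it was not taken at that start.

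The E-type cyclins were represented almost wholly by Ccne1. Ccne1, on chromosome 7 from 38097984 to 38107534 on the minus strand, was listed at 18.3 FPKM with Nutlin-3a against 21.1 FPKM with DMSO. Its log2 ratio of -0.19 was the one closest to 0 among the 7 members compared, and it was 0.04 when each group was scaled to the upper quartile of its own values above 0, a form of scaling discussed with the comparison to all genes. Cyclin E1 activates CDK2 at the end of G1. The ratio of Ccne1 to its kinase Cdk2 was 2.68 in Nutlin-3a and 2.42 in DMSO.

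Ccne2, on chromosome 4 from 11191351 to 11204779 on the plus strand, encodes cyclin E2, a close relative with the same partner. Its 3 transcripts summed to 0.177 FPKM with Nutlin-3a against 0.0921 FPKM with DMSO. Each of the 3 had the higher value in Nutlin-3a. The most abundant had 0.101 FPKM with Nutlin-3a against 0.0627 FPKM with DMSO, the next 0.0738 FPKM with Nutlin-3a against 0.0282 FPKM with DMSO, and the last 0.00201 FPKM with Nutlin-3a against 0.00123 FPKM with DMSO. All 3 carry the class code j, which in Cufflinks notation marks an assembled form that shares a splice junction with a known transcript, while the 8 transcripts of the other members carry the code of a full match. Ccne2 made up 0.955% of the E-type sum in Nutlin-3a and 0.434% in DMSO. Its mean level lay under the minimum of 1 FPKM set for comparison, so it enters no count below. Of the 6329 symbols under that minimum, 72.1% had the higher value in Nutlin-3a, so the direction of Ccne2 was that of most weakly listed genes.

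Read against all genes, the ratios of the 7 members compared lay between percentiles 21.7 and 83.4. Of 10331 genes compared, with a mean of at least 1 FPKM and a value above 0 in each group, 12.8% were at least 2-fold higher or lower in Nutlin-3a on the log2(FPKM + 1) scale (6.62% higher, 6.14% lower). Of the 7 members compared 0 were, in either direction, a share that at this number of genes lies near the background. At a limit of 1.5-fold, 33.0% of all genes passed (17.8% higher, 15.2% lower). Of the members Cdk6 alone did in FPKM as deposited, a call that depends on the processing. The median log2 ratio was -0.31 over the 7 members and 0.07 over all genes compared.

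The balance of higher and lower genes rested on how the groups were scaled. As deposited, 684 genes were higher and 634 lower. Scaled to the upper quartile of the values above 0 in each group, the form computed first, 1152 were higher and 385 lower. The median log2 ratio of all genes was then 0.29. In that form the quartile was taken over 16243 symbols in Nutlin-3a and 14363 in DMSO, since more symbols were listed at 0 with DMSO. Taken over all symbols, a form chosen after those values were seen, it gave 629 higher and 688 lower genes and a median of 0.03. Under the scaling to values above 0, Ccne1 had a log2 ratio of 0.04, while Ccnd1 (-0.17), Ccnd3 (-0.12), Cdk2 (-0.10) and Cdk4 (-0.13) stayed below 0 and Ccnd2 (0.74) and Cdk6 (0.79) above it. Ccne1 thus stayed below the median of all genes under either form.

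The members spanned log2 ratios of -0.41 for Ccnd1 to 0.61 for Cdk6. Of all genes compared, 16.6% had a higher ratio than Cdk6, and 21.7% had a lower one than Ccnd1. Ccnd2 stood at percentile 78.7 of all ratios. Cdk4, Ccnd3, Cdk2 and Ccne1 stood at percentiles 22.9, 24.3, 25.8 and 32.7.

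**Figure D3:**
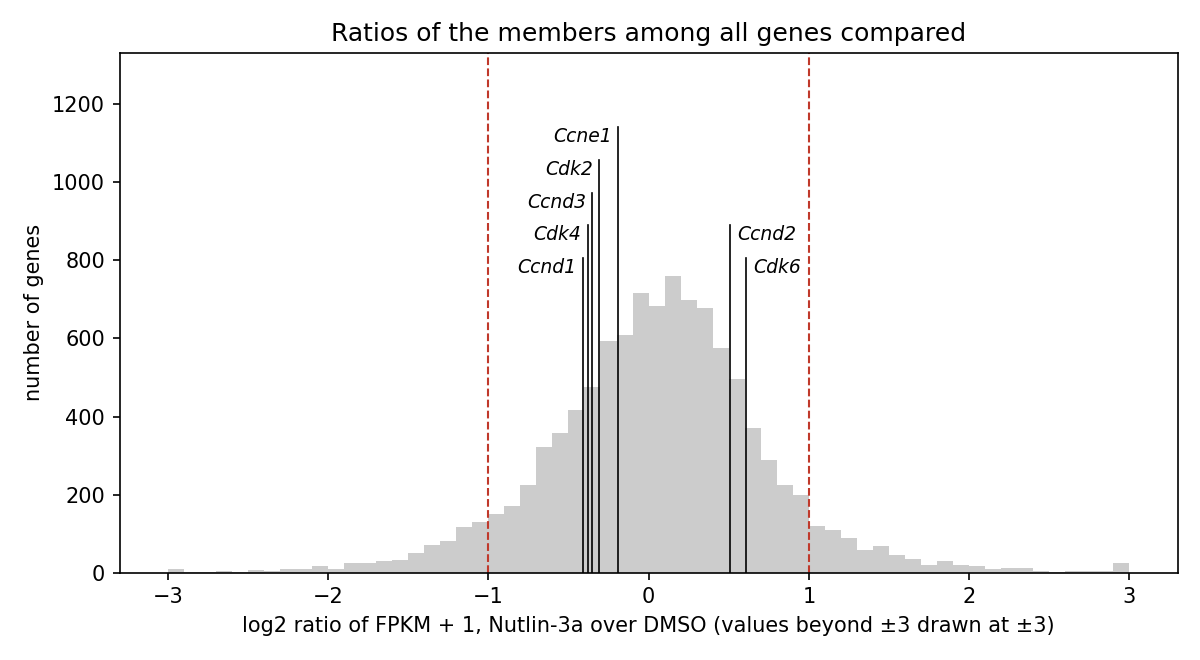
Histogram of the log2 ratio of FPKM + 1, Nutlin-3a over DMSO, for the 10331 genes compared, with a line for each of the 7 members compared and dashed lines at the 2-fold limit. All 7 lie inside the dashed lines, with Ccnd2 and Cdk6 above 0 and the other 5 below 0 in FPKM as deposited (Ccne1 at 0.04 when scaled to the upper quartile of values above 0).

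Ratios over all genes moved with base composition and level, and the members differ in both. When genes were divided into 8 equal classes by GC content, the lowest-GC class had a median log2 ratio of 0.24 and the highest-GC class one of -0.17. Cdk6 (45.1% GC) and Ccnd2 (47.1% GC) fell in the third class, where the median was 0.16. The other members compared had 48.8% to 56.7% GC, in classes whose medians were between -0.10 and 0.08. Once GC content was corrected for, the log2 ratio of Cdk6 was 0.44 and that of Ccnd2 was 0.38, while Ccnd1 had -0.44, Cdk2 -0.40, Cdk4 -0.32, Ccnd3 -0.22 and Ccne1 -0.16. By level, 58.9% of genes with a mean of 1 to 3 FPKM, the class of Cdk6, were higher in Nutlin-3a. Of genes at 100 FPKM or more, the class of Cdk4, 47.9% were. The part of composition and level in the direction of each member was not tested.

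Several members share their locus with another gene, and the sources used here do not state whether reads were assigned by strand. Ccnd2, Ccnd3 and Ccne2 were deposited with the same start and end (interval) as 9330179D12Rik, Bysl and Ints8, respectively. The overlap lengths that follow are by GENCODE annotation. The annotated end of Cdk4 overlaps by 641 bases that of Tspan31, a tetraspanin gene on the opposite strand. Their deposited intervals do not overlap and lie 8 bases apart. Tspan31 was listed at 44.5 FPKM with Nutlin-3a against 58.2 FPKM with DMSO, a fold of 0.764, next to 0.770 for Cdk4. Ccnd3 overlaps by 361 bases Bysl, a ribosome assembly gene on the opposite strand listed at 19.7 FPKM with Nutlin-3a against 24.3 FPKM with DMSO (0.811-fold, next to 0.773-fold for Ccnd3).

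Ccne2 overlaps by 5622 bases Ints8, an Integrator complex gene on the opposite strand listed at 6.66 FPKM with Nutlin-3a against 4.69 FPKM with DMSO. Ints8 was thus far more abundant than Ccne2 in both groups and was also listed higher in Nutlin-3a. By annotation Cdk2 overlaps by 837 bases Pmel, a pigment cell gene, but their deposited intervals lie 1207 bases apart. Pmel was listed at 0.354 FPKM with Nutlin-3a against 0.435 FPKM with DMSO. Ccnd2 overlaps by 2805 bases the transcript 9330179D12Rik, listed at 0.441 FPKM with Nutlin-3a against 0.825 FPKM with DMSO, opposite in direction to Ccnd2. Where such pairs overlap, reads from either strand cannot be told apart without strand information.

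Genes near a member without overlap did not share a common direction. Within 10 kb of Ccnd1, Oraov1 was listed at 14.7 FPKM with Nutlin-3a against 7.73 FPKM with DMSO, the opposite direction to Ccnd1. Beside Ccnd3, Med20, a Mediator subunit gene, had 9.01 FPKM with Nutlin-3a against 9.61 FPKM with DMSO, and Taf8, a TFIID subunit gene, had 3.09 FPKM with Nutlin-3a against 3.75 FPKM with DMSO. Beside Cdk2, Rab5b, an endosomal GTPase gene, had 6.23 FPKM with Nutlin-3a against 5.67 FPKM with DMSO, and Dgka, a diacylglycerol kinase gene, had 0.551 FPKM with Nutlin-3a against 0.805 FPKM with DMSO. Beside Cdk4, LOC100504703 had 6.54 FPKM with Nutlin-3a against 8.85 FPKM with DMSO. A further gene there, whose symbol the table holds as a calendar date, had 0.635 FPKM with Nutlin-3a against 3.29 FPKM with DMSO.

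Around the family, 10 lists of pathway genes held 92 genes compared. Of these 13 passed the 2-fold limit (14.1%, against 12.8% of all genes), 7 higher and 6 lower. At 1.5-fold 24 passed (26.1%, against 33.0% of all genes). The lists as a whole thus stood near the background or below it. These counts are for FPKM as deposited and were not retaken under the scaling to values above 0. Under that scaling 385 of all genes were lower, against 634 as deposited, so calls near the limit can change. The counts by list that follow come from 3 to 18 genes each, where 6.62% of all genes were higher and 6.14% lower, so a list with 1 or 2 genes past the limit is not set apart by that count.

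Among the inhibitors of these kinases a single gene passed the 2-fold limit. Of 6 CDK inhibitor genes compared, 1 was at least 2-fold higher and 0 were lower, with a median log2 ratio of -0.01. Cdkn1a, the p21 gene, was the higher one, at 386 FPKM with Nutlin-3a against 35.2 FPKM with DMSO. At the level of RNA, the ratio of Cdkn1a to Cdk2 was 56.5 with Nutlin-3a and 4.03 with DMSO. The ratio of Cdkn1a to Cdk4 was 1.38 in Nutlin-3a and 0.0967 in DMSO. These ratios do not give the proportions of the proteins. Cdkn2a, which encodes the CDK4 and CDK6 inhibitor p16 and, from another reading frame, ARF, was the most abundant inhibitor gene in both groups. It was listed at 776 FPKM with Nutlin-3a against 1207 FPKM with DMSO, a log2 ratio of -0.64.

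The pocket proteins are substrates of these kinases. Of their 3 genes, 1 was at least 2-fold higher, and all 3 had log2 ratios above 0 (median 0.65). Rb1, the retinoblastoma gene, was listed at 8.70 FPKM with Nutlin-3a against 1.05 FPKM with DMSO, and Rbl1, the p107 gene, at 3.16 FPKM with Nutlin-3a against 2.08 FPKM with DMSO. None of the 8 E2F factor and partner genes compared passed the 2-fold limit, 4 lay above 0 and 4 below, and the median was -0.07. E2f4, the main repressive E2F of resting cells, had 22.6 FPKM with Nutlin-3a against 26.4 FPKM with DMSO, and its dimer partner Tfdp1 had 25.2 FPKM with Nutlin-3a against 21.2 FPKM with DMSO.

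Among enzymes that switch the kinases on or off, 1 of 8 was lower and 0 were higher (median 0.16). That gene was Cdc25b, a phosphatase that activates CDKs, at 8.05 FPKM with Nutlin-3a against 22.1 FPKM with DMSO. Ccnh, the cyclin H subunit of the CDK-activating kinase, had 19.3 FPKM with Nutlin-3a against 13.8 FPKM with DMSO. Of 11 genes of the ubiquitin ligases that remove G1 cyclins and p27, 2 were higher and 0 lower (median -0.02). Fbxw7, the receptor that marks cyclin E for degradation, was 3.66-fold higher, at 14.6 FPKM with Nutlin-3a against 3.99 FPKM with DMSO. Skp1a, the adaptor that joins such receptors to the ligase, was 2.35-fold higher, at 251 FPKM with Nutlin-3a against 107 FPKM with DMSO.

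The list of cyclin D regulators linked to mitogen signals was not divided into genes that raise and genes that lower cyclin D. Of its 10 genes compared, 1 was higher and 0 were lower, with 8 log2 ratios above 0 and a median of 0.33. The higher one was Fos, an AP-1 subunit, at 7.29 FPKM with Nutlin-3a against 1.96 FPKM with DMSO. Ctnnb1, the beta-catenin gene, had 90.8 FPKM with Nutlin-3a against 90.5 FPKM with DMSO.

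Of 5 cyclin and Cdk1 genes of S and M phase compared, 2 were lower and 0 higher (median -0.16), beside 6.14% of all genes lower. Ccna2, the other cyclin partner of CDK2, had 11.7 FPKM with Nutlin-3a against 25.3 FPKM with DMSO, and the mitotic cyclin Ccnb2 had 21.7 FPKM with Nutlin-3a against 50.7 FPKM with DMSO. Of 18 E2F-regulated S phase genes, 1 was higher and 2 were lower (median 0.09). Rrm2, a ribonucleotide reductase subunit, was higher at 31.5 FPKM with Nutlin-3a against 10.7 FPKM with DMSO. Tk1, thymidine kinase, was lower at 6.30 FPKM with Nutlin-3a against 51.1 FPKM with DMSO, and Uhrf1, which maintains DNA methylation, was lower at 7.51 FPKM with Nutlin-3a against 18.5 FPKM with DMSO. The calls of Ccna2 (log2 ratio -1.05), Ccnb2 (-1.18) and Uhrf1 (-1.2) lie near the 2-fold limit and hold for FPKM as deposited. Ccnf, also of the S and M phase list, lay just short of the limit on the higher side (0.86). It had 22.7 FPKM with Nutlin-3a against 12.0 FPKM with DMSO. Scaling to values above 0 raises every log2 ratio. By its quartiles (13.8 FPKM with Nutlin-3a against 16.4 FPKM with DMSO), those lower calls would be lost and Ccnf would pass as higher. Whether later cyclins differ from G1 cyclins beyond replicate error could not be tested.

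The remaining cyclins and kinases, most of which act in transcription or outside the cell cycle, were mostly within the limit too. Of 9 other cyclins compared, 1 was higher and 0 lower (median 0.55). Ccng1, a p53 target, was the higher one, at 199.9 FPKM with Nutlin-3a against 22.3 FPKM with DMSO, and Ccni had 49.5 FPKM with Nutlin-3a against 64.5 FPKM with DMSO. Of 14 genes on the list of other cyclin-dependent kinases, 1 was lower and 0 higher (median 0.07). Cdk10 was the lower one, at 20.5 FPKM with Nutlin-3a against 52.6 FPKM with DMSO, and Cdk16, a kinase activated by cyclin Y, had 35.3 FPKM with Nutlin-3a against 66.1 FPKM with DMSO.

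**Figure D4:**
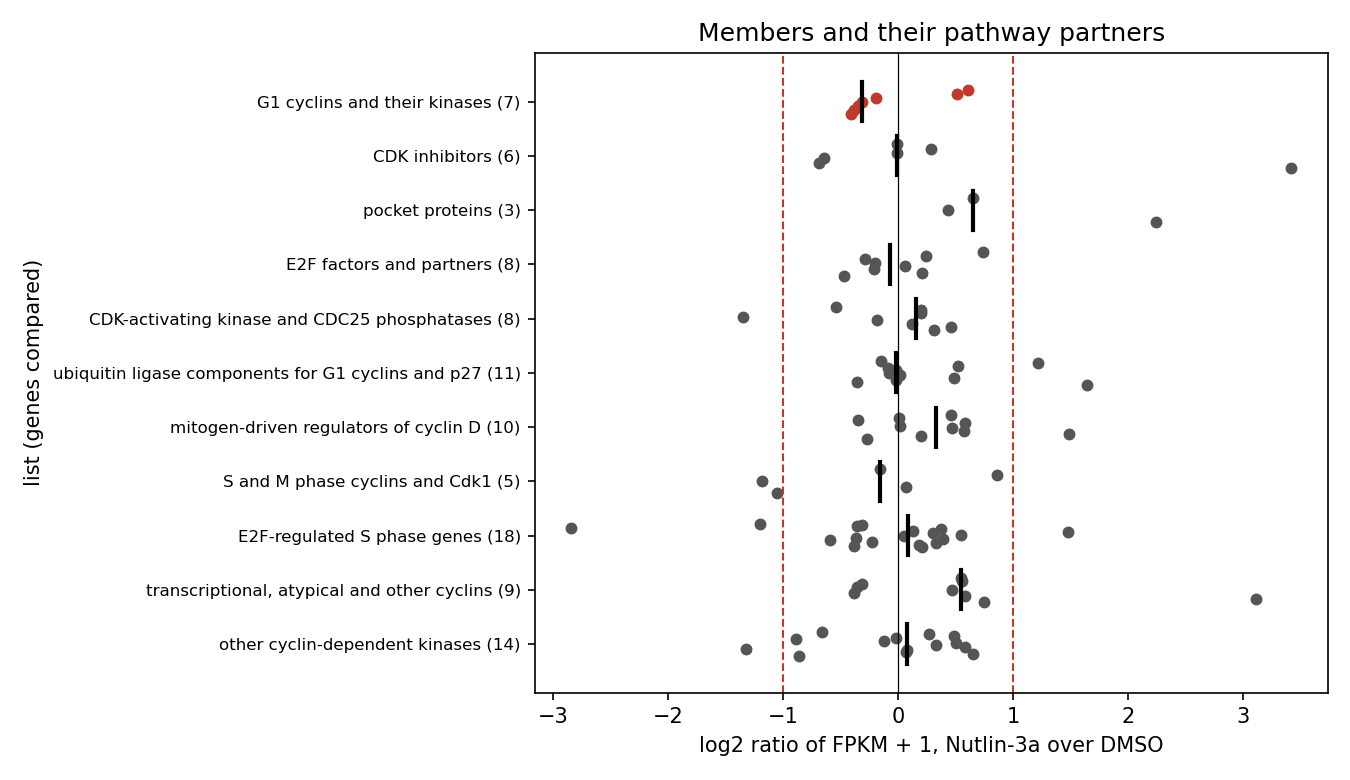
Log2 ratio of FPKM + 1, Nutlin-3a over DMSO, of each gene compared (points) in the G1 cyclin and kinase family (top row) and 10 pathway lists, with the number of genes in brackets, the median as a bar and dashed lines at the 2-fold limit. The top row stays inside the limit, while Cdkn1a, Rb1 and Ccng1 lie farthest to the right and Tk1 farthest to the left.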

How the data were processed

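Total RNA of 3T3-L1 cells was sequenced from 4 libraries, 2 per group, grouped by their titles. Per the submitters' processing notes, TopHat2 2.0.11 was used with mm10. How transcripts were quantified, whether by strand, and how replicates were joined is not stated in the sources used here. Per the file headers, FPKM values were deposited by the authors for 24746 transcripts, 1 per group. The deposited columns headed as fold expression hold log2 of the same FPKM and were not used. Another 4294 lines held only tabs.

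Transcript FPKM was summed per symbol in Python 3.11.15 with pandas 2.3.3, and log2 ratios used a pseudocount of 1, which understates ratios of weakly listed genes. Folds and percent differences are plain ratios. Genes entered with a mean of at least 1 FPKM and a value above 0 in each group. With 1 value per group, the planned limma fit was replaced by a 2-fold limit. GC content came from the longest GENCODE M21 transcript of each symbol (9935 genes, 96.2%), with a lowess correction in statsmodels 0.14.6. Promoters are RefSeq's. Upper-quartile scaling was first computed over the values above 0 in each group and, after its values were seen, over all symbols, so that both groups use the same genes; both are reported.

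The members and lists were chosen with earlier results of these data known. The genes named are the members, their neighbours in the table within 10 kb, and of each list up to 4 genes past the limit, or the most abundant to make 2. Ccnf is named besides, since its call depends on the scaling. With 2 values per gene, no genes of like pattern were sought.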

Additional observations from a re-analysis of the deposited data

How the results depend on the processing

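No paired analysis was possible because the table holds 1 value per group, and leaving out a replicate was not possible for the same reason. Under the 11 alternatives listed in advance, each of the 7 members compared kept the sign of its log2 ratio where it had a value, and none passed 2-fold. Among these, upper-quartile scaling over all symbols took that form only after the form over values above 0 in each group had been seen. That first form is counted outside the 11. It reversed Ccne1 (0.04, against -0.19 as deposited), so for Ccne1 the kept sign over the 11 rests on the later form. The first form also gave 1152 higher and 385 lower genes, and moved the median of all genes to 0.29, against 0.07 as deposited. The other 6 members kept their sign under it, and none passed 2-fold. Over the 11, the ranges were -0.48 to -0.38 for Ccnd1, 0.38 to 0.55 for Ccnd2, -0.42 to -0.22 for Ccnd3, -0.27 to -0.16 for Ccne1, -0.40 to -0.20 for Cdk2, -0.45 to -0.29 for Cdk4 and 0.29 to 0.85 for Cdk6, which is not among the genes with a mean of at least 5 FPKM. With a limit of 1.5-fold, 1 member was called higher (Cdk6, 0.61). Its log2 ratio fell short of that limit with upper-quartile scaling over all symbols (0.57), quantile normalization (0.48) and GC correction (0.44). Scaled to values above 0, Ccnd2 (0.74) lay past it as well as Cdk6 (0.79). Without a filter on low values Ccne2 entered, at 0.11. Counts over all genes, 684 higher and 634 lower, were 249 and 291 with a pseudocount of 5, and 1839 and 1566 at 1.5-fold. Over the 92 pathway list genes, 7 were higher and 6 lower at 2-fold (14.1%, against 12.8% of all genes), and 12 and 12 at 1.5-fold (26.1%, against 33.0%). The higher genes numbered 391 with a mean of at least 5 FPKM and 1039 at 2-fold on the plain ratio. The pseudocount, filter and limit act on these counts by construction. The other scalings moved the median log2 ratio of all genes by at most the 0.07 that centring removes. Depth and replicate spread, both unknown here, limit every value.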
